A study of Homo sapiens with 12 samples.

Results

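Mitochondrial fatty acid oxidation was followed through 10 of its genes in HEK293T cells, a human embryonic kidney cell line, carrying wild-type or mutant EZH2. The genes were *ACADL*, *ACADM*, *ACADS*, *ACADVL*, *CPT1A*, *CPT2*, *HADHA*, *HADHB*, *ETFA* and *ETFDH*, chosen by symbol from the 14438 genes of the count table and all tested. The 4 lines had been infected with lentivirus for EZH2 WT, for the gain-of-function (GOF) forms EZH2 Y641F or EZH2 A677G, or for the loss-of-function (LOF) double mutant EZH2 H689A/F667I, and each was sequenced as mRNA in 3 replicates. All lines kept their endogenous EZH2 gene, so every mutant form was measured in the presence of wild-type EZH2. Each line was a blasticidin-selected population intended to be monoclonal, so an effect of the mutation and a property of the selected population cannot be told apart.

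Long-chain fatty acids are linked to carnitine at the outer mitochondrial membrane by CPT1 and returned to coenzyme A inside by CPT2. An acyl-CoA dehydrogenase suited to the chain length then takes the first electrons, and a hydratase, a second dehydrogenase and a thiolase complete each turn of the cycle. For long chains those last steps are carried out by the trifunctional protein, built from HADHA and HADHB, and the electrons from the acyl-CoA dehydrogenases pass through the flavoprotein ETFA/ETFB to ETFDH and on to ubiquinone. EZH2 is the enzyme of polycomb repressive complex 2 that methylates lysine 27 of histone H3, a mark found at repressed genes.

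Library totals ran from 32137700 to 44562413 counts. EZH2 counts, which add the introduced and endogenous transcripts, averaged 158 ± 4.32 counts per 1000000 (CPM) with EZH2 WT, 218 ± 9.61 with EZH2 Y641F, 173 ± 8.57 with EZH2 A677G and 208 ± 2.03 with EZH2 H689A/F667I (SD, n = 3). By edgeR's quasi-likelihood test EZH2 was called higher than with EZH2 WT in every mutant line. The rises were 37.8% with EZH2 Y641F (adjusted p = 1.57e-10), 9.64% with EZH2 A677G (0.0294) and 31.6% with EZH2 H689A/F667I (1.15e-07). An effect of the EZH2 level on the 10 genes was not tested. Replicate 1 of EZH2 Y641F stood apart on the first principal component, at 5.60 against 15.2 to 17.7 for the other 5 GOF libraries, and values without it are given where a result rests on it. Among markers of HEK293T cells, VIM lay between 244 and 272 CPM, whereas PAX2 was listed at 0 in all 3 EZH2 A677G replicates and at no more than 25 counts elsewhere. PTPRC, PECAM1 and ALB, which mark blood, endothelial and liver cells, were not among the listed genes.

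The promoter of *ACADL* is shown beside that of *ACADM* because *ACADL* passed the test in the GOF lines and its relative for medium chains did not. Both sequences are RefSeq windows on GRCh38.p14, with CG dinucleotides in capitals. They run 5′ to 3′ from 250 bases before to 50 bases after the start used for the window. *ACADL* lies at chr2:210225398-210225697 on the minus strand and *ACADM* at chr1:75724459-75724758 on the plus strand. The GENCODE gene start of *ACADL* (210225447) falls within its window. That of *ACADM* (75724431) lies before the first base of its window, so the 2 windows are placed differently against the GENCODE starts.
ACADL: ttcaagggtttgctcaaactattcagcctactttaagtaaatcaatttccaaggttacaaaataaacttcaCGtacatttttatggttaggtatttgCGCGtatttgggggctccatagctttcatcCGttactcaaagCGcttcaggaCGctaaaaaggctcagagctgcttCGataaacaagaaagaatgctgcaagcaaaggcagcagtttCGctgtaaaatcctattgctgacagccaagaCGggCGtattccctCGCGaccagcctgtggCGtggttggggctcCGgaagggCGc
ACADM: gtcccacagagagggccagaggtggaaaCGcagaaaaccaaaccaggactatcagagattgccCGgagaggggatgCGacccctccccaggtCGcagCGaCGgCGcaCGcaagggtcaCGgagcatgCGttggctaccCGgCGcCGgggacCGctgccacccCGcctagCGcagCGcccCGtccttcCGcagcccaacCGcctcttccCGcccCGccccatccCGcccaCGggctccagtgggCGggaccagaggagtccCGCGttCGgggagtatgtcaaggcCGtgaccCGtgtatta
The *ACADL* window held 15 CG dinucleotides at 46.7% GC, and the *ACADM* window held 30 at 68.7% GC, against medians of 14 and 58.7% over 35116 promoter windows. The GC content of *ACADL* was at percentile 23.9 of all windows, while its ratio of observed to expected CG was 0.919, at percentile 83.0. Windows were matched for 9 of the 10 genes, all but *ETFDH*, with a pair of windows for *ACADVL*. *HADHA* and *HADHB* are transcribed away from each other, and their windows share 194 bases. The letters AGGTCA (the short site of nuclear receptors, on either strand), TCAAGGTCA (an element of estrogen-related receptors, which contains the first), GCGCATGC (the core of the NRF1 site) and CACGTG (an E-box) occurred in none of the 10 windows of these genes. They occurred in 13.8%, 0.353%, 3.05% and 7.26% of all windows.

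*ACADL* fell in both EZH2 GOF mutants and was the only one of the 10 genes that passed edgeR's quasi-likelihood test in any comparison in the fit used throughout (*HADHB* passed 1 comparison under other settings, given with that gene). It encodes long-chain acyl-CoA dehydrogenase, whose part in human mitochondrial oxidation is less settled than that of its relatives. The gene (ENSG00000115361.8) spans chr2:210187126-210225447 on the minus strand of GRCh38. Its counts were 178, 208 and 161 with EZH2 WT, 137, 104 and 123 with EZH2 Y641F, 138, 128 and 101 with EZH2 A677G, and 201, 236 and 131 with EZH2 H689A/F667I. Scaled by library size and TMM (trimmed mean of M values), these were 4.82, 5.38 and 4.86 CPM with EZH2 WT and 3.26, 2.73 and 2.91 CPM with EZH2 Y641F. The A677G replicates were at 3.10, 3.15 and 2.77 CPM, and the H689A/F667I replicates at 5.44, 6.01 and 4.07 CPM. Every GOF replicate lay below every EZH2 WT and every EZH2 LOF replicate, as for 5.41% of all genes tested, and the LOF replicates spread around those of EZH2 WT on both sides.

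Tests were edgeR quasi-likelihood fits over all 12 samples and 14263 genes, with Benjamini-Hochberg adjustment and a threshold of 0.05. With EZH2 Y641F, *ACADL* had a log2 fold change of -0.76 ± 0.16 (SE) against EZH2 WT, and its level fell by 40.9% (95% interval -52.6% to -26.2%, adjusted p = 0.00114). With EZH2 A677G the log2 fold change was -0.74 ± 0.16 and the level fell by 40.1% (-52.0% to -25.3%, adjusted p = 0.00132). Both comparisons share the EZH2 WT replicates. The EZH2 LOF mutant gave 0.05 ± 0.15 (-16.4% to 27.8%, adjusted p = 0.960), and the interval did not reach the decrease of either GOF mutant. The GOF mutants differed from each other by -0.02 ± 0.16 (-21.5% to 24.1%, adjusted p = 0.988), which leaves room for a difference of about that width. Their mean differed from the EZH2 LOF mutant by -0.80 ± 0.13 (adjusted p = 3.20e-05). Without replicate 1 of EZH2 Y641F the log2 fold change of that line was -0.83 (adjusted p = 0.000958). The study had placed *ACADL* among its EZH2 targets from the transcript levels of these samples together with chromatin data, so its direction here is not independent evidence.

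At 101 to 236 counts per library, *ACADL* was the most weakly expressed of the 10 genes, at percentile 22.3 of mean log2 CPM over the genes tested. Its biological coefficient of variation was 0.102, against 0.0310 for *HADHA* and 0.0640 for *ACADS*. Cells that stop expressing *ACADL* and cells that hold less of its RNA cannot be told apart in these bulk libraries. A long noncoding RNA, ENSG00000279317, is annotated antisense over all 38322 bases of *ACADL* and was not among the listed genes. The library kit kept strand information, but the strand setting of the counting is not given in the sources used here.

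**Figure D1:**
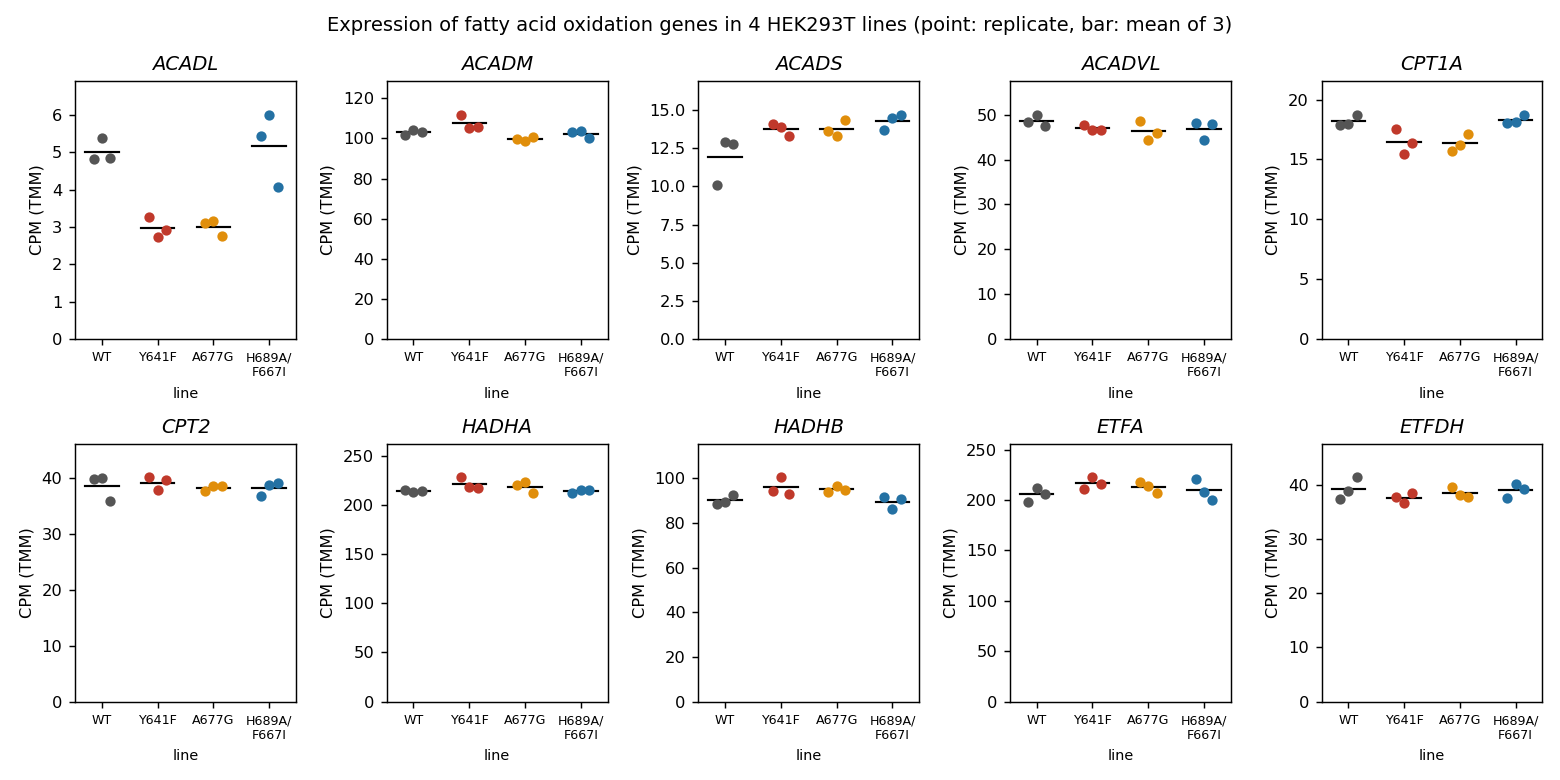
Each panel shows 1 gene, with the TMM-scaled CPM on a vertical axis from 0 and the 4 lines along the horizontal axis. Points are the 3 replicates and bars their mean. *ACADL* replicates of EZH2 Y641F and EZH2 A677G sit between 2.73 and 3.26 CPM, below all EZH2 WT and EZH2 H689A/F667I replicates.

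Beyond *ACADL*, no gene of the 10 was called with EZH2 Y641F, where 5.59% of all genes were called lower and 2.09% higher. The same held with EZH2 A677G, where 6.48% of all genes were lower and 2.07% higher. In the EZH2 LOF mutant none of the 10 passed edgeR's quasi-likelihood test, where 0.161% of all genes were called lower and 0.14% higher. At an unadjusted p under 0.05 there was 1 of the 10, against 8.30% of all genes. None was called between the GOF mutants either, where 0.014% of genes were called lower and 0.0701% higher for Y641F, and 1 of the 10 against 6.91% of all genes had an unadjusted p under 0.05. DESeq2 also called 0 in both of these comparisons. In the mean of the GOF mutants against the LOF mutant, *ACADL* alone was called, against 8.75% of all genes lower and 3.81% higher. The median log2 fold change of the other 9 genes was 0.05 with EZH2 Y641F, -0.02 with EZH2 A677G and -0.01 with EZH2 H689A/F667I, where the median over all genes was 0.0025, 0.0045 and 0.0024.

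The intervals of the other 9 genes bound what could have been missed. Over all 9, the 95% intervals ran from -18.5% (*CPT1A*) to 31.1% (*ACADS*) with EZH2 Y641F, from -19.2% (*CPT1A*) to 31.1% (*ACADS*) with EZH2 A677G and from -10.3% (*ACADVL*) to 36.4% (*ACADS*) with EZH2 H689A/F667I. For the 7 genes other than *ACADS* and *CPT1A* they stayed between -10.9% (*ETFDH*) and 12.8% (*HADHB*) with EZH2 Y641F. With EZH2 A677G the bounds of those 7 were -11.3% (*ACADVL*) and 11.8% (*HADHB*), and with EZH2 H689A/F667I -10.3% (*ACADVL*) and 7.76% (*ETFA*). None of the 9 intervals reached the size of the *ACADL* decrease in the GOF mutants.

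**Figure D2:**
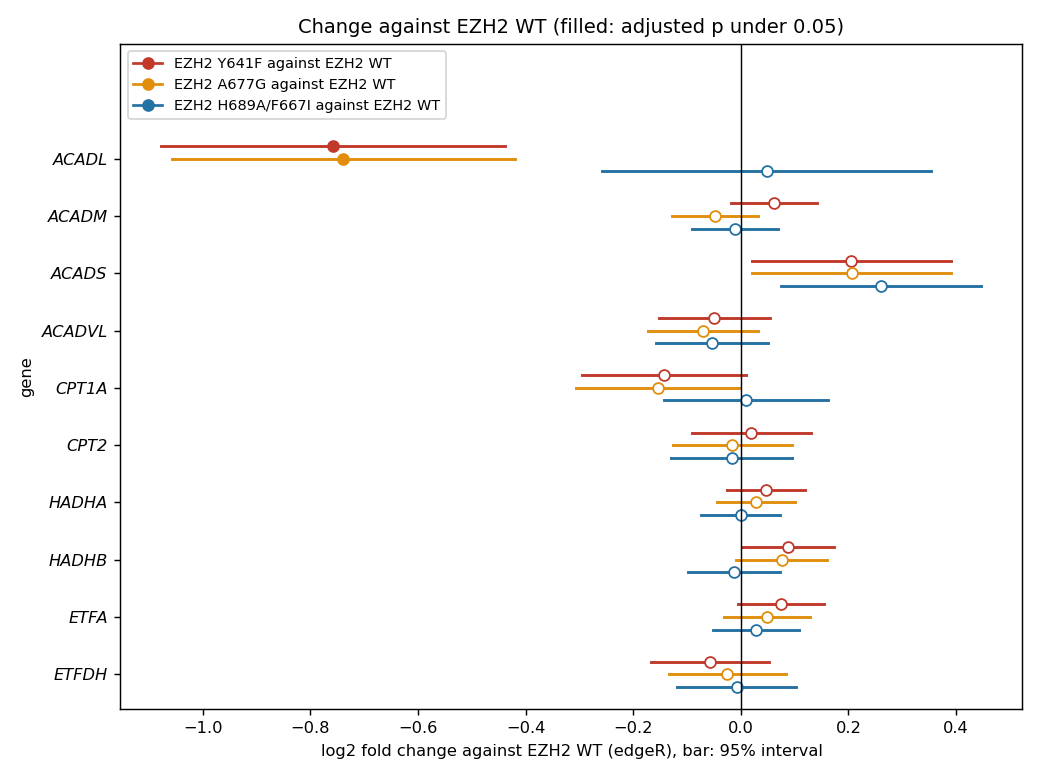
The horizontal axis gives the log2 fold change against EZH2 WT and the vertical axis the 10 genes, with 1 row for each mutant line. Bars are 95% intervals, and filled points have an adjusted p under 0.05. The *ACADL* intervals of EZH2 Y641F and EZH2 A677G lie wholly below 0, and all other points are open.

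Of the acyl-CoA dehydrogenases, *ACADVL* starts very long chains, *ACADM* medium chains and *ACADS* short chains. *ACADM* was at 102, 104 and 103 CPM with EZH2 WT, 112, 105 and 106 CPM with EZH2 Y641F, and 99.5, 98.8 and 101 CPM with EZH2 A677G. All Y641F replicates thus lay above EZH2 WT, as for 9.28% of all genes, and all A677G replicates below, as for 14.7%. The gap between the GOF mutants was 0.11 ± 0.04 on the log2 scale (unadjusted p = 0.00832, adjusted p = 0.558 by edgeR's quasi-likelihood test), which missed the threshold. *ACADM* shares 1379 bases of its locus with *RABGGTB* on the same strand, and how the counting divided such reads is not given in the sources used here.

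*ACADS* was at 10.1, 12.9 and 12.8 CPM with EZH2 WT, and no replicate of the 3 mutant lines lay below 13.3 CPM. The mutant means were 13.8 ± 0.430 CPM with EZH2 Y641F, 13.8 ± 0.538 with EZH2 A677G and 14.3 ± 0.525 with EZH2 H689A/F667I (SD, n = 3). Groups did not overlap, which held in the same direction for 9.28%, 12.5% and 7.89% of all genes. The log2 differences of 0.21, 0.21 and 0.26 missed the threshold (adjusted p = 0.193, 0.179 and 0.347, edgeR). EZH2 WT replicate 1 stood lowest, and without it they were 0.10, 0.10 and 0.15. The 95% intervals of *ACADS* with all libraries were 1.47% to 31.1%, 1.48% to 31.1% and 5.39% to 36.4%. *ACADVL* replicates overlapped in every comparison, with means of 48.6 ± 1.28 CPM with EZH2 WT, 47.0 ± 0.706 with EZH2 Y641F, 46.3 ± 2.08 with EZH2 A677G and 46.9 ± 2.09 with EZH2 H689A/F667I. Its locus shares 2717 bases with *DLG4* on the opposite strand.

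Per length of the canonical transcript, *ACADL* made up a small part of these 4 dehydrogenases. Its share of their summed CPM per kb was 2.62% ± 0.109 with EZH2 WT, 1.52% ± 0.0971 with EZH2 Y641F, 1.62% ± 0.126 with EZH2 A677G and 2.69% ± 0.507 with EZH2 H689A/F667I (SD, n = 3). *ACADM* held 59.8% ± 0.701 of the sum with EZH2 WT and 61.2% ± 0.384 with EZH2 Y641F. The decrease of *ACADL* therefore concerned the least abundant transcript of the 4.

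In the carnitine shuttle, *CPT1A* encodes the enzyme of the outer membrane that limits the entry of long chains, and *CPT2* its partner inside. *CPT1A* was at 17.9, 18.0 and 18.7 CPM with EZH2 WT and at 18.0, 18.2 and 18.7 CPM with EZH2 H689A/F667I. It was at 17.5, 15.5 and 16.4 CPM with EZH2 Y641F and at 15.7, 16.2 and 17.1 CPM with EZH2 A677G. All 6 GOF replicates lay below all 6 others, as for 5.41% of all genes, and the log2 differences of -0.14 ± 0.08 and -0.15 ± 0.08 against EZH2 WT did not pass (adjusted p = 0.305 and 0.237, edgeR), nor did -0.16 ± 0.06 for the GOF mean against the LOF mutant (adjusted p = 0.115). The intervals of *CPT1A* against EZH2 WT were -18.5% to 0.688% and -19.2% to -0.139%. *CPT2* had overlapping replicates throughout, at 38.6 ± 2.32 CPM with EZH2 WT and means of 38.2 to 39.2 CPM in the mutants.

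The trifunctional protein has its hydratase and long-chain dehydrogenase on HADHA and its thiolase on HADHB. *HADHB* was at 88.7, 89.3 and 92.6 CPM with EZH2 WT, 94.3, 100.4 and 92.9 CPM with EZH2 Y641F and 93.8, 96.5 and 94.8 CPM with EZH2 A677G. The H689A/F667I replicates were at 91.8, 86.0 and 90.6 CPM, so all GOF replicates lay above all others, as for 1.75% of all genes. The log2 differences were 0.09 ± 0.04 and 0.08 ± 0.04 against EZH2 WT (adjusted p = 0.240 and 0.320), and 0.09 ± 0.04 for the GOF mean against the LOF mutant (adjusted p = 0.0910, edgeR). The last of these passed, at 0.12 (adjusted p = 0.0151), once the trend with GC content was removed, and at 0.10 (adjusted p = 0.0440) under voom weights (limma). *HADHA*, which shares 1503 bases with *HADHB* on the opposite strand, was at 214 ± 1.11 CPM with EZH2 WT, 222 ± 5.82 with EZH2 Y641F, 219 ± 6.11 with EZH2 A677G and 214 ± 2.05 with EZH2 H689A/F667I. Its log2 differences of 0.05, 0.03 and 0.00 against EZH2 WT missed the threshold. Processed pseudogenes of both genes (HADHAP1, HADHAP2 and HADHBP1) were not among the listed genes, and reads shared with them are uncertain.

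Electron transfer from the dehydrogenases depends on *ETFA* and *ETFB*, which encode the subunits of the electron transfer flavoprotein, and on *ETFDH*, its oxidoreductase at the inner membrane. *ETFA* averaged 206 ± 6.91 CPM with EZH2 WT, 217 ± 5.70 with EZH2 Y641F, 213 ± 5.38 with EZH2 A677G and 210 ± 10.9 with EZH2 H689A/F667I, with overlapping replicates. *ETFDH* averaged 39.3 ± 2.05, 37.7 ± 0.901, 38.6 ± 0.967 and 39.1 ± 1.32 CPM in the same order, and its locus shares 1616 bases with *PPID* on the opposite strand. *ETFB*, which is not one of the 10 genes, averaged 49.4 ± 1.45 CPM with EZH2 WT and 47.9 to 48.6 CPM in the mutants, and was not called.

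By CPM per kb with EZH2 WT the order of levels was *ETFA* (89.8 ± 3.02), *HADHA* (72.9 ± 0.378), *ACADM* (45.6 ± 0.550), *HADHB* (45.2 ± 1.06), *ACADVL* (22.3 ± 0.588), *CPT2* (14.3 ± 0.860), *ETFDH* (12.6 ± 0.658), *ACADS* (6.42 ± 0.862), *CPT1A* (3.47 ± 0.0811) and *ACADL* (2.00 ± 0.126). *ACADM* and *HADHB* differed by less than their spread, and the other neighbours in the order differed by more. *ACADL* was the lowest in all 4 lines, at 1.18 ± 0.106 with EZH2 Y641F, 1.19 ± 0.0812 with EZH2 A677G and 2.06 ± 0.397 with EZH2 H689A/F667I.

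The genes around *ACADL* on chromosome 2 gave no call in any comparison. Within 500 kb, 4 genes were tested. *CPS1*, the first enzyme of the urea cycle, and *LANCL1* both have their start upstream of *ACADL*, at -252.2 kb, and *KANSL1L* and *RPE*, a pentose phosphate enzyme, start 54.0 kb and 222.9 kb downstream. With EZH2 Y641F their log2 differences were 0.13, 0.09, 0.03 and -0.002, and with EZH2 A677G they were 0.10, 0.03, 0.04 and -0.02. The lowest end of any of these intervals in a GOF mutant was -0.16 (*KANSL1L* with EZH2 Y641F), above the *ACADL* estimates.

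**Figure D3:**
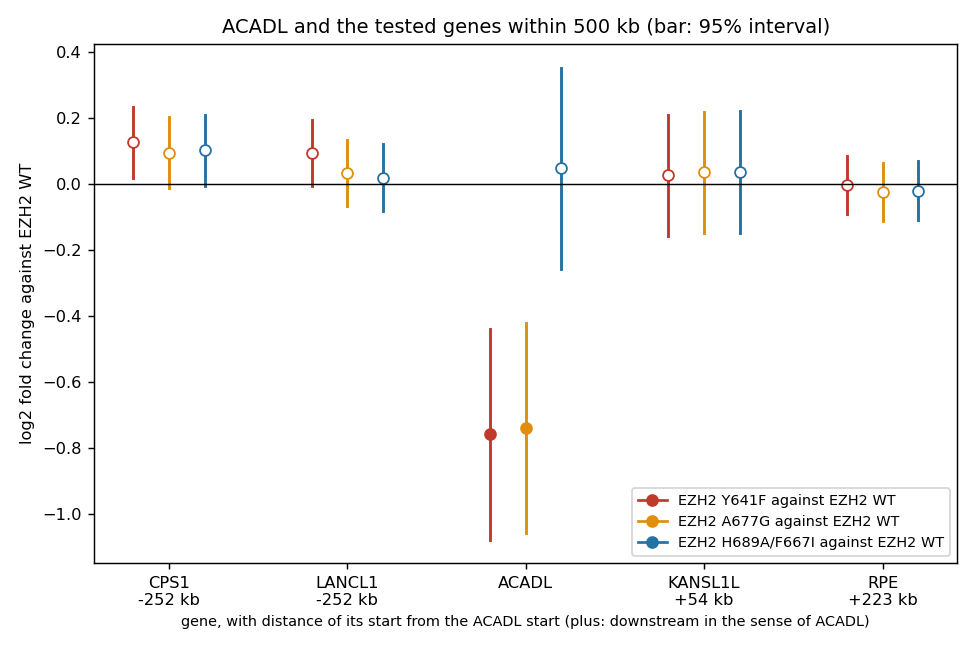
Log2 fold changes against EZH2 WT on the vertical axis are shown for *ACADL* and the 4 tested genes within 500 kb, ordered by the distance of their starts from that of *ACADL*. Bars are 95% intervals and filled points have an adjusted p under 0.05. *ACADL* is the sole gene with filled points, with EZH2 Y641F and EZH2 A677G.

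Across the 12 samples, the 5 genes most like *ACADL* were taken by Pearson's r of log2 CPM from the 12040 genes whose mean log2 CPM reached 1. They were *LAYN* (r = 0.977), *DAAM2* (0.964), *EGFR* (0.964), *ACVR1C* (0.954) and *FAM105A* (0.949). The 12 samples form a GOF and a non-GOF cluster for these genes, so r restates that split and no test is given. As a description, *EGFR*, a growth factor receptor, had log2 differences of -0.79 with EZH2 Y641F, -0.78 with EZH2 A677G and -0.05 in the LOF mutant. *ACVR1C*, a receptor of the TGF-beta family, was at -0.73 in both GOF mutants. Among the 10 genes, r with *ACADL* was highest for *CPT1A* (0.780) and lowest for *HADHB* (-0.822).

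A wider list of 70 genes of fatty acid oxidation and its control placed these values in their pathway. Of these, 67 were in the table and 66 were tested. Counts of lower and higher genes were 3 and 1 with EZH2 Y641F, 7 and 0 with EZH2 A677G, 1 and 0 with EZH2 H689A/F667I, and 6 and 3 for the GOF mean against the LOF mutant, *ACADL* included. Shares of 3 in 66 and 7 in 66 stand beside the 5.59% and 6.48% of all genes called lower. With the GC trend removed the splits became 3 and 3, 7 and 2, 1 and 0, and 6 and 8, while those of all genes went from 797 and 298 to 750 and 469 with EZH2 Y641F, from 924 and 295 to 891 and 622 with EZH2 A677G, and from 1248 and 544 to 1172 and 1107 for the GOF mean against the LOF mutant. Median log2 differences of the list were 0.02, 0.01 and 0.00 in the 3 mutants, close to those of all genes. No list gene was called between the GOF mutants by edgeR or DESeq2, with 3 of 66 at an unadjusted p under 0.05 against 6.91% of all genes.

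Of 7 genes for hydration, dehydrogenation and thiolysis, 4 for unsaturated chains, 3 for electron transfer and 2 for carnitine synthesis, none was called in any comparison by edgeR's quasi-likelihood test without a GC correction or by DESeq2. With the GC trend removed, *ECHS1*, the short-chain hydratase, was called higher with EZH2 A677G at 0.11 (adjusted p = 0.0458, against 0.252 without the correction), and *HADHB* was called as given above. At an unadjusted p under 0.05 there were 0 to 2 of the first group in a comparison and 0 of the others. *ACADL* was the one called gene of 11 in the acyl-CoA dehydrogenase family, in each GOF mutant. The called genes otherwise lay at the entry into the pathway, in peroxisomes and among regulators. Under the GC correction, edgeR also called genes higher at the entry and among regulators. *ACACA* passed at 0.13 with EZH2 Y641F and 0.12 with EZH2 A677G (adjusted p = 0.0211 and 0.0291). *CPT1C* passed with EZH2 Y641F at 0.47 (adjusted p = 0.0368), where replicate 1 stood highest (7.99 CPM against 5.36 and 5.30). Without the correction, *CPT1C* also passed when Y641F replicate 2 or 3 was left out (0.54 and 0.55, adjusted p = 0.0383 and 0.0355, edgeR). It was not called when replicate 1 was left out. With the correction, *ACACA*, *ACACB* and *SLC25A20* passed for the GOF mean against the LOF mutant, at 0.11, 0.19 and 0.19 (adjusted p = 0.013, 0.043 and 0.038).

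**Figure D4:**
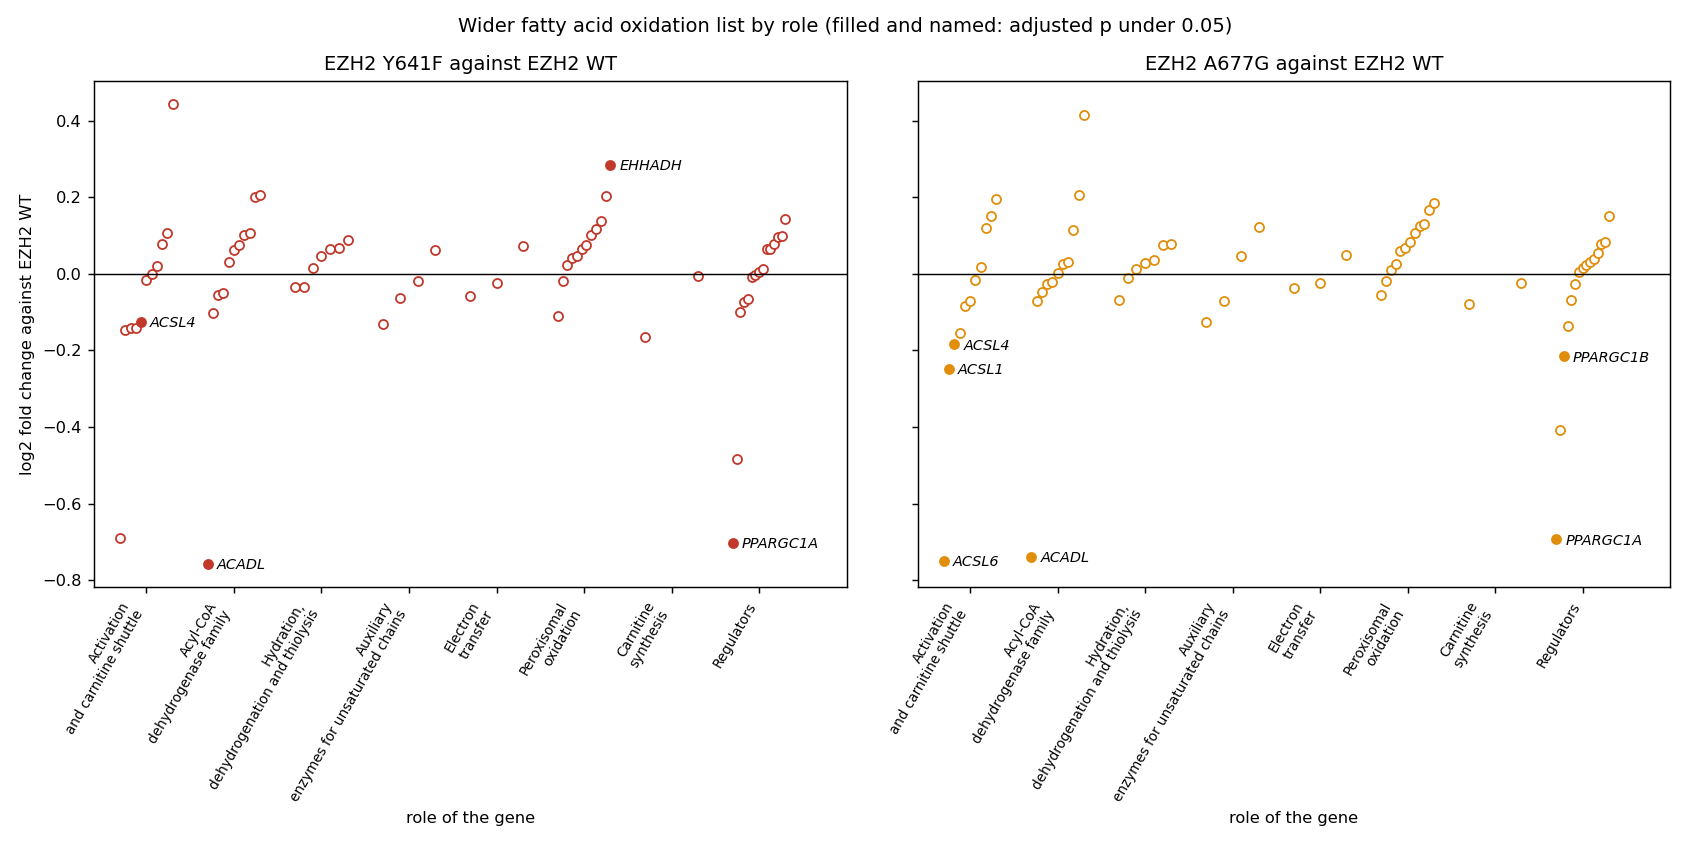
The 65 tested genes of the wider list that are reported here are grouped by role along the horizontal axis, with the log2 fold change against EZH2 WT on the vertical axis, for EZH2 Y641F (left) and EZH2 A677G (right). Filled points with names have an adjusted p under 0.05. Most genes lie near 0, and *ACADL*, *PPARGC1A* and *ACSL6* stand near the bottom in both panels. The *ACSL6* point is open with EZH2 Y641F and filled with EZH2 A677G.

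Among regulators, *PPARGC1A* changed by about as much as *ACADL*. It encodes PGC-1alpha, a coactivator of mitochondrial gene expression. Its CPM were 5.85, 6.32 and 5.79 with EZH2 WT, 3.57, 3.49 and 3.97 with EZH2 Y641F, 3.68, 4.28 and 3.13 with EZH2 A677G, and 7.12, 6.52 and 6.61 with EZH2 H689A/F667I. All GOF replicates lay below all EZH2 WT replicates, as for 11.7% of all genes with EZH2 Y641F and 14.7% with EZH2 A677G. All LOF replicates lay above those of EZH2 WT, as for 7.89% of all genes. *PPARGC1A* fell by 0.70 on the log2 scale with EZH2 Y641F (adjusted p = 0.000582, edgeR) and by 0.69 with EZH2 A677G (adjusted p = 0.000587). The LOF difference of 0.17 missed the threshold (adjusted p = 0.787, edgeR). Its relative *PPARGC1B* fell by 0.22 with EZH2 A677G (adjusted p = 0.00779), from 49.4 ± 1.82 to 42.6 ± 0.725 CPM, a call lost without EZH2 WT replicate 1 (-0.20, adjusted p = 0.0504). *PDK4*, a kinase that restrains pyruvate dehydrogenase, was at 1.33 to 2.19 CPM with EZH2 A677G and 1.10 to 1.95 CPM with EZH2 Y641F, and was called in the GOF mean against the LOF mutant (2.38 to 3.07 CPM), at -0.83 (adjusted p = 0.00282).

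Fatty acids are activated by acyl-CoA synthetases. *ACSL4*, which prefers polyunsaturated chains, was at 115, 115 and 118 CPM with EZH2 WT, 112, 102 and 105 CPM with EZH2 Y641F and 105, 103 and 98.8 CPM with EZH2 A677G. Both GOF groups lay wholly below EZH2 WT, as for 11.7% (EZH2 Y641F) and 14.7% (EZH2 A677G) of all genes. *ACSL4* fell by 0.18 with EZH2 A677G (adjusted p = 0.00197) and by 0.13 with EZH2 Y641F, the latter at the threshold (adjusted p = 0.0489, edgeR). Leaving out any 1 library other than replicate 1 of EZH2 Y641F ended the Y641F call of *ACSL4* (adjusted p up to 0.200), as did the exact test, library totals alone and a fit of the compared groups alone (0.122, 0.110 and 0.130). *ACSL1* fell by 0.25 with EZH2 A677G (adjusted p = 0.0104), from 39.0 ± 3.65 to 32.9 ± 1.08 CPM, a call lost without EZH2 WT replicate 2 or EZH2 A677G replicate 2 (adjusted p = 0.180 and 0.0707).

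*ACSL6* turned on single libraries. Its CPM were 4.82, 4.66 and 5.13 with EZH2 WT, 4.97, 1.68 and 2.34 with EZH2 Y641F, 3.46, 2.60 and 2.58 with EZH2 A677G, and 4.49, 3.69 and 6.70 with EZH2 H689A/F667I. Replicate 1 of EZH2 Y641F was at the level of EZH2 WT, and the other Y641F replicates were the lowest of all. The difference was -0.69 (adjusted p = 0.0603) with EZH2 Y641F with that replicate and -1.27 (adjusted p = 4.98e-05) without it. With all libraries it passed under the exact test, the replicate block and voom weights (adjusted p = 0.0378, 0.0178 and 0.00750). *ACSL6* fell by 0.75 with EZH2 A677G (adjusted p = 0.0346), a call lost without any 1 EZH2 WT replicate or without A677G replicate 2 or 3 (adjusted p up to 0.140), and also under DESeq2 (0.251) and library totals alone (0.0504).

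Among peroxisomal genes, *EHHADH*, the bifunctional enzyme of the peroxisome, rose by 0.29 with EZH2 Y641F (adjusted p = 0.00895), from 16.5 ± 0.374 to 20.1 ± 0.595 CPM, and was at 18.6 ± 0.885 CPM with EZH2 A677G, where it missed the threshold (adjusted p = 0.170). *SCP2* and *PHYH*, which act on branched chains, were called in the GOF mean against the LOF mutant, at 0.12 and 0.30 (adjusted p = 0.0316 and 0.00604, edgeR). The *PHYH* call was lost without H689A/F667I replicate 3 (0.26, adjusted p = 0.0562). The *SCP2* call was lost under upper-quartile factors (adjusted p = 0.0702) and without A677G replicate 1 or 2 or H689A/F667I replicate 1 or 3 (adjusted p up to 0.221). Against EZH2 WT, *SCP2* missed the threshold with EZH2 Y641F but passed it under DESeq2, library totals alone and voom weights (adjusted p = 0.0335, 0.0495 and 0.0461), without EZH2 WT replicate 3 (0.0440) and without Y641F replicate 1 (0.16, adjusted p = 0.0305).

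Without H689A/F667I replicate 3, the GOF mean against the LOF mutant called 5 list genes lower and 0 higher. Calls over all genes also fell in both directions in that fit, the higher ones from 544 to 378 of 14263 genes. *CPT1B*, the muscle form of CPT1, was listed at 0 in all 3 EZH2 H689A/F667I replicates and at 11 to 22 counts in every other library, and was left out of the test among 175 genes listed at 0 throughout a line. Whether such zeros are counts or failed estimates is not given in the sources used here.

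**Figure D5:**
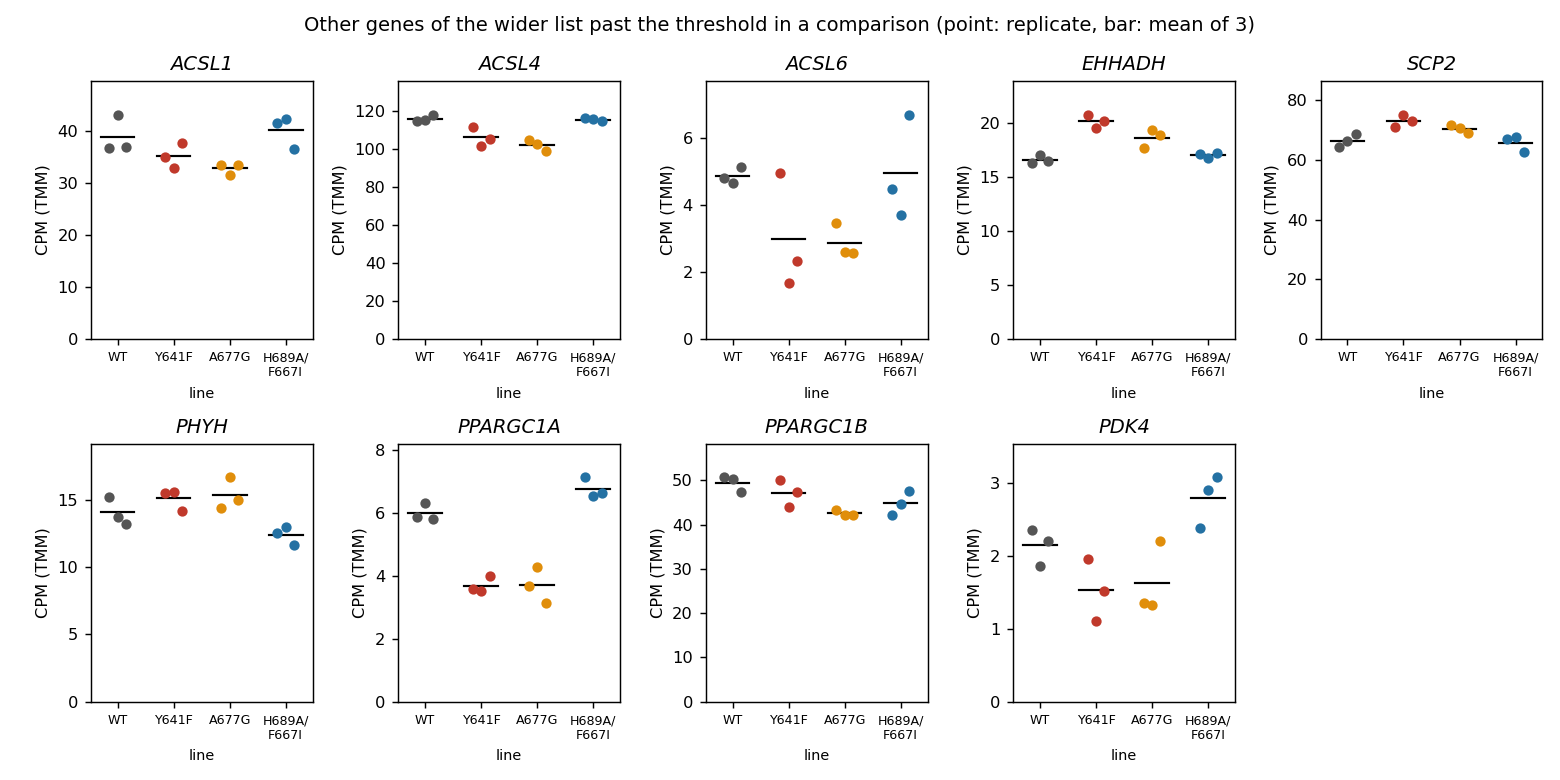
Each panel shows 1 of 9 called genes of the wider list that are not among the first 10 genes, with TMM-scaled CPM on a vertical axis from 0 and the 4 lines along the horizontal axis. Points are the 3 replicates and bars their mean. *PPARGC1A* is lower in all 6 GOF replicates than in the other 6, as for 5.41% of all genes. The *ACSL6* replicates of EZH2 Y641F are split between 4.97 and 1.68 CPM.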

How the data were processed

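RNA was sequenced from 12 libraries, 3 replicates of each of 4 HEK293T lines. The authors deposited 1 table of whole counts per gene symbol. They trimmed reads with Trim Galore 0.6.5, aligned them with STAR 2.7.9a to GRCh38 and quantified with Salmon 1.2.0, per the submitters' processing notes and methods. How the counts were summed by symbol and filtered is not given in the sources used here. The study's own test used edgeR 3.16. Here, counts were fitted with edgeR 4.0.16 (R 4.3.3) by quasi-likelihood over all 12 samples with TMM factors and Benjamini-Hochberg adjustment, after removal of 175 genes at 0 throughout the A677G or the H689A/F667I line, which left 14263. The code was tested on simulated data. Replicate numbers name separate samples, and p-values measure the spread between them. Intervals are model-based at 95%. Gene positions and transcript lengths came from GENCODE on GRCh38 and promoters from RefSeq.

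The members and lists were chosen with earlier results of these data known. Genes named were all members, list genes called in any comparison with ETFB, the 5 genes most like ACADL, tested genes within 500 kb of a called member, and EZH2, apart from items not reported here. CPT1B and PAX2 were named after their values were seen, as were list genes called only in an alternative fit. Alternatives were edgeR's exact test, DESeq2 1.42.0, limma 3.58.1 voom weights, other scaling and filters, compared groups alone, a replicate block, removal of a GC trend (5 spline degrees of freedom) and each sample left out.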

Additional observations from a re-analysis of the deposited data

Results flagged for a closer look

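For 9 of the 66 tested genes of the wider list, beside 12.6% of all genes, the response of the GOF mutants, taken as their mean, differed from that of the LOF mutant by the test of the difference itself (edgeR quasi-likelihood, adjusted p under 0.05). Lower in the GOF mutants were *ACADL* (log2 difference -0.80), *PPARGC1A* (-0.87), *PDK4* (-0.83), *ACSL6* (-0.74), *ACSL1* (-0.24) and *ACSL4* (-0.15). Higher were *PHYH* (0.30), *EHHADH* (0.19) and *SCP2* (0.12). Of these, *ACADL* is the only one among the 10 genes followed first. For *PDK4*, *PHYH* and *SCP2* no mutant passed the threshold against EZH2 WT in this fit, though *SCP2* with EZH2 Y641F did under DESeq2, library totals alone, voom weights and without EZH2 WT replicate 3 or Y641F replicate 1 (adjusted p = 0.0305 to 0.0495). *ACADL*, *PPARGC1A*, *PDK4* and *ACSL4* kept their calls without any 1 library, and the other calls each ended without at least 1 library. Without that library the adjusted p was up to 0.151 for *EHHADH*, 0.221 for *SCP2*, 0.212 for *ACSL6*, 0.0562 for *PHYH* and 0.0503 for *ACSL1*. The *EHHADH* call (adjusted p = 0.0444 by edgeR) held in 5 of 12 fits with 1 library left out. It also ended under upper-quartile factors, compared groups alone and the replicate block (adjusted p = 0.077, 0.054 and 0.052, edgeR). The *ACSL6* call ended under DESeq2 (adjusted p = 0.131).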

How the results depend on the processing

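*ACADL* kept its direction and its call in both GOF mutants and in their mean against the LOF mutant in every fit run. With 1 library left out its log2 fold change ranged from -0.83 to -0.70 in EZH2 Y641F, from -0.77 to -0.69 in EZH2 A677G and from -0.94 to -0.67 for the GOF mean against the LOF mutant. Members called rose from 1 to 2 in that last comparison under voom weights, with the GC trend removed, and with it removed together with a replicate block, where *HADHB* was the gene added. The wider list gave 14 in place of 9 in that comparison with the GC trend removed, with or without the block, and 5 to 9 with 1 library left out. In EZH2 Y641F the list gave 7 in place of 4 with the GC trend removed and the replicate block. Calls over all genes there went from 797 lower and 298 higher to 749 and 471. In EZH2 H689A/F667I the list gave 2 in place of 1 when genes listed at 0 were kept, with *CPT1B* added. Calls over all genes there went from 23 lower and 20 higher to 139 and 30.

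Values that changed sign were all uncalled. With 1 library left out, *ETFA* in the LOF mutant ranged from -0.0162 (without its replicate 1) to 0.0585, and *ACSL6* there from -0.25 (without replicate 3) to 0.19. Between the GOF mutants, *ACSL6* was -0.25 under voom weights and ranged from -0.52 (without Y641F replicate 1) to 0.34, and *PDK4* ranged from -0.29 to 0.20 (without A677G replicate 3). Changes of sign within 1 SE of an uncalled value were not counted. Correlations of deviations between lines were -0.104 to 0.132 for same-numbered replicates and -0.132 to 0.118 for others. Whether same-numbered samples were prepared together is not given in the sources used here. With the replicate block alone *ACADL* was at -0.75 and -0.74 in the GOF mutants. The exact test was not run for the GOF mean against the LOF mutant. Between 101 and 236 counts a library limit the precision for *ACADL*.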
